A study of Mus musculus with 12 samples.

Results

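Pecam1, Cdh5, Kdr, Flt1, Tek, Emcn, Plvap, Ehd3, Nos3 and Vwf are genes whose transcripts mark the cells that line blood vessels. These 10 genes, taken by name from 24421 gene symbols, were followed in RNA-seq libraries of whole mouse kidneys. The 12 libraries came from 12 male mice at 6 weeks old, C57BL/6 by the labels and C57BL/6J by the study's methods, and formed 4 groups of 3. WT mice and Tet2-/- mice, named for the loss of the 5-methylcytosine dioxygenase TET2, were taken without an operation (baseline), or 24 h after renal ischemia-reperfusion (IR) in which the right renal pedicle was clamped for 60 min and the left kidney was removed. The study's sham-operated mice gave no library analysed here, so the IR effect holds surgery and removal of the left kidney as well as the ischemia. Which part of Tet2 the allele removes is not given in the sources used here. Levels are given as FPKM, fragments per kilobase of transcript scaled to the size of the library. Fold changes are those of edgeR's quasi-likelihood test. A gene was called at a Benjamini-Hochberg adjusted p under 0.05 over all genes tested and an absolute log2 fold change over 1.

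Endothelial cells form a single layer between blood and tissue, and in the kidney they differ by place. Glomerular capillaries are fenestrated filters, peritubular capillaries carry away what the tubules reabsorb, and larger vessels regulate flow. Reperfusion after ischemia is known to disturb junctions, vascular tone and the capillary surface, and VEGF and angiopoietin signalling keep the resting layer intact.

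Tet2 itself went against the labels at baseline. Its FPKM was 9.15, 6.25 and 7.33 in WT baseline replicates 1, 2 and 3 and 9.24, 16.6 and 10.3 in the baseline libraries labelled Tet2-/-. After IR it was 9.34, 3.97 and 3.86 in WT libraries and 2.64, 3.20 and 1.76 in those labelled Tet2-/-. The log2 difference between genotypes was 0.76 (SE 0.24, adjusted p = 0.321) at baseline and −1.28 (SE 0.36, adjusted p = 0.069) after IR, so every genotype direction below follows the labels. Adipocyte markers stood out in 3 libraries. Their mean log2(FPKM + 0.1) was 1.71 in WT baseline replicate 2, 3.35 in WT baseline replicate 3 and 4.03 in IR replicate 3 labelled Tet2-/-, against −1.83 to −0.11 in the other libraries. The tubular injury markers Havcr1 and Lcn2 were both called higher after IR in both genotypes.

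All 10 genes were detected in every library. The summed FPKM of the 10 ran from 12.7 to 185 per library, against 853 to 3758 for 6 tubule marker genes. Sums of chosen markers do not measure the endothelial share of the kidney's RNA. In WT baseline kidneys (mean ± SD, n = 3) Plvap, which builds the diaphragms of fenestrae and caveolae, was highest at 54.6 ± 27.6 FPKM, and Emcn, a sialomucin of the capillary and venous surface, followed at 39.7 ± 20.9. Pecam1, the adhesion molecule CD31, lay at 11.7 ± 4.70 and Ehd3, a membrane trafficking protein found in glomerular endothelium, at 6.87 ± 2.56. The angiopoietin receptor Tek (TIE2) and Cdh5 (VE-cadherin, the endothelial adherens junction protein) lay close together at 4.49 ± 1.28 and 4.34 ± 1.37. The VEGF receptors Kdr (VEGFR2) and Flt1 (VEGFR1) were at 2.57 ± 1.04 and 1.80 ± 0.655. Nos3, endothelial nitric oxide synthase, was at 1.44 ± 0.601 and Vwf, the platelet-binding von Willebrand factor, was lowest at 0.735 ± 0.335. In this order only the step from Emcn to Pecam1 separated neighbours with no overlap of their 3 libraries. Flt1 has 1 transcript in the files, so its soluble and membrane forms cannot be told apart.

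**Figure D1:**
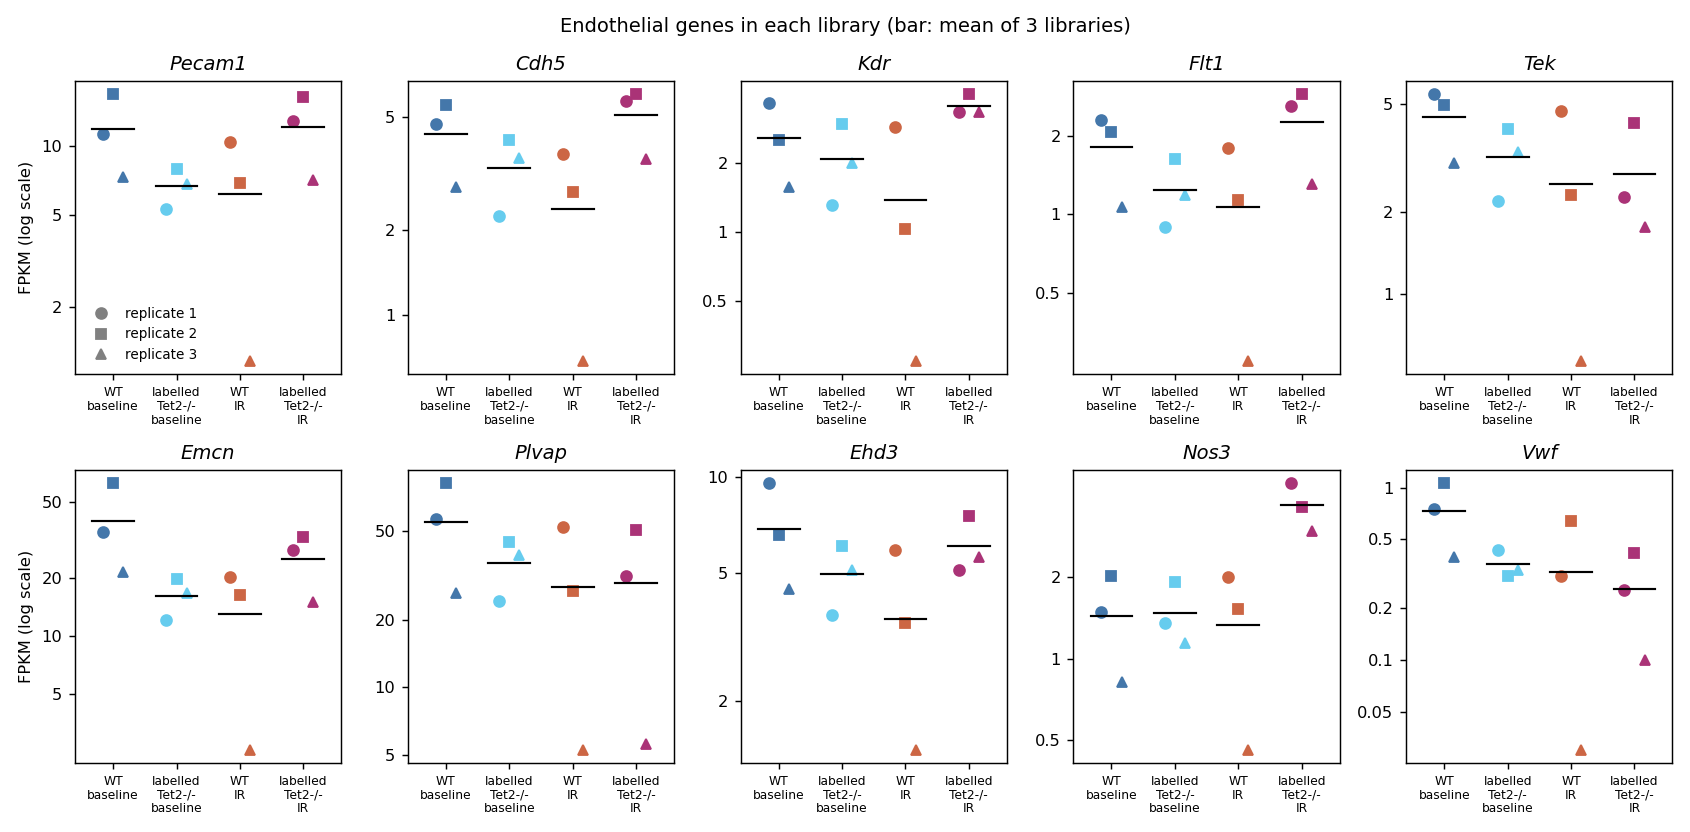
FPKM of each gene (log scale, different range in each panel) in the 12 libraries, with the marker shape giving the replicate number and the bar the mean of 3. WT IR replicate 3 is the lowest point of all 10 panels, and Nos3 is the panel in which all 3 IR libraries labelled Tet2-/-, at 2.97 to 4.46, lie above the other 9.

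Because the levels of these genes differed between libraries together, the 250 bases before each counted transcript's start were read from mm9 and searched on both strands for 3 short motifs of endothelial promoters. The ETS motif CAGGAAG was in the windows of Emcn, Plvap and Vwf, that is 3 of 10, against 10.1% of 24348 windows of the same length. The forkhead-ETS core ACAGGAA was in those of Cdh5, Emcn and Nos3, again 3 of 10, against 6.60%. At least 1 of the 2, which share the letters CAGGAA and overlap in Emcn, was in 5 of 10 windows against 13.8%. The KLF motif CACACCC was in 0 of 10 against 7.30%. Shown here are Nos3 (chr5:23870387-23870636, plus strand), the only called member, and Emcn (chr3:137003792-137004041, plus strand) and Plvap (chr8:74035669-74035918, minus strand), which had the highest levels. Each is written 5′ to 3′ toward the transcript, with either motif in capitals.
Nos3: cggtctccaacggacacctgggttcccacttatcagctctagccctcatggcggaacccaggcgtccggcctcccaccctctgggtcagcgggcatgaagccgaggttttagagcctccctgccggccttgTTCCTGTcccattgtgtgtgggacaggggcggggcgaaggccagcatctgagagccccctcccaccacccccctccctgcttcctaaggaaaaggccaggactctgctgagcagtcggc
Emcn: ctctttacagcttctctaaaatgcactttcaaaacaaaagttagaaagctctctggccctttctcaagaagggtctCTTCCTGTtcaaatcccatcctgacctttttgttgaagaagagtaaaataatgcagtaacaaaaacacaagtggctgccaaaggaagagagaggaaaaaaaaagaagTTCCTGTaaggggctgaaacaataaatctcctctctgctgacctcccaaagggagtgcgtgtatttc
Plvap: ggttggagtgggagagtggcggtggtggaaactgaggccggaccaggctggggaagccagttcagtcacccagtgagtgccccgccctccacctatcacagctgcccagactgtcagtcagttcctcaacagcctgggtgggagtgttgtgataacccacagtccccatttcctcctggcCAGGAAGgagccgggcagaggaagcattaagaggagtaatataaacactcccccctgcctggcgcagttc
The windows differed in CpG content, the target of TET enzymes. Flt1 had 25 CpG sites in its 250 bases and Kdr and Ehd3 had 16 each, Nos3 had 11, and Emcn had 1, Pecam1 and Tek 2 each, Vwf 4 and Cdh5 and Plvap 5 each. The median of all windows was 9. A match of letters is a description and methylation was not measured in these files.

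The libraries of each group differed in all or nearly all endothelial genes at once. WT baseline replicate 3 had the lowest FPKM of its group for 10 of 10 genes, and baseline replicate 1 labelled Tet2-/- for 8. IR replicate 3 labelled Tet2-/- was lowest of its group for 9 and IR replicate 2 highest for 9. The ratio of the highest to the lowest library of a group had a median over the 10 genes of 2.30 in WT baseline, 1.75 in baseline labelled Tet2-/-, 8.17 in WT IR and 2.19 in IR labelled Tet2-/-. WT IR replicate 3 stood apart, with the lowest FPKM of all 12 libraries for 10 of 10 genes. The mean of WT IR replicates 1 and 2 was higher than replicate 3 by factors from 3.33 for Ehd3 to 15.7 for Vwf. Over the 12214 genes that averaged 1 FPKM or more the median of this ratio was 1.09, and 2.13% of them exceeded the value of Ehd3. The same library had a summed FPKM of 4.78 over 7 podocyte markers, all above 0, against 28.5 and 29.0 in WT IR replicates 1 and 2. It was also the lowest of all 12 in the summed FPKM of 8 pericyte and smooth muscle markers, at 16.02 against 95.8 and 54.2, and of 5 red blood cell genes, at 30.5 against 100.6 and 249. Its total of 56280111 counts lay within the range of 51007362 to 107969879 over all libraries. In bulk tissue fewer endothelial cells and less RNA per endothelial cell cannot be told apart. The WT IR group is therefore also given without this library, which leaves it 2 libraries.

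In WT kidneys after IR all 10 endothelial genes had a negative log2 fold change and none passed the test. The median was −1.005, against −0.03 over all 16015 genes, of which 52.7% were negative. edgeR called 0 of 10 lower or higher, DESeq2 called 0, and Emcn was the 1 gene lower at an unadjusted p under 0.05. Of all genes 0.887% were called lower, 1.46% were called higher, and 11.3% were lower at that unadjusted limit. Without WT IR replicate 3 the median was −0.55, with 9 of 10 negative and 0 of 10 called, and without WT IR replicate 1 it was −1.58. The log2 fold changes without replicate 3 were −0.55 for Pecam1 and Cdh5, −0.52 for Kdr, −0.42 for Flt1, −0.46 for Tek, −0.58 for Plvap, −0.66 for Ehd3 and −0.75 for Vwf, with adjusted p values of 0.425 to 0.657.

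Among the junction and adhesion genes, Pecam1 (NM_008816, chr11:106515527-106576595, minus strand) had FPKM values of 11.3, 16.7 and 7.30 in WT baseline replicates 1 to 3 and 10.4, 6.90 and 1.16 in WT IR replicates. The log2 fold change was −1.03 (SE 0.66, adjusted p = 0.398). Cdh5 (NM_009868, chr8:106625525-106668402, plus strand) went from 4.72, 5.48 and 2.83 to 3.70, 2.72 and 0.691, a log2 fold change of −0.97 (SE 0.53, adjusted p = 0.327). In both genes the groups overlapped, since WT IR replicate 1 lay above WT baseline replicate 3. Of the receptors, Kdr had a log2 fold change of −0.99 (SE 0.72, adjusted p = 0.449), Flt1 of −0.86 (SE 0.59, adjusted p = 0.429) and Tek of −0.92 (SE 0.63, adjusted p = 0.424). Their groups overlapped in the same way.

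Emcn (NM_001163522, chr3:137004042-137094033, plus strand) had the largest of these differences. Its FPKM was 34.8, 62.6 and 21.7 in WT baseline libraries and 20.4, 16.3 and 2.57 in WT IR libraries. It was the only member whose WT IR libraries all lay below the WT baseline libraries (1 of 10, against 10.4% of all genes), although WT IR replicate 1 and WT baseline replicate 3 were near each other. The log2 fold change was −1.69 (SE 0.69, adjusted p = 0.203), and −1.22 (SE 0.42, adjusted p = 0.240) without WT IR replicate 3. Ehd3 (NM_020578, chr17:74154181-74181433, plus strand) went from 9.56, 6.60 and 4.46 to 5.90, 3.52 and 1.41, with WT IR replicate 1 inside the range of the WT baseline libraries. Its log2 fold change was −1.02 (SE 0.48, adjusted p = 0.261).

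Plvap (NM_032398, chr8:74021652-74035668, minus strand) had FPKM values of 56.2, 81.4 and 26.3 at WT baseline and 52.0, 26.8 and 5.27 after IR, a log2 fold change of −1.06 (SE 0.72, adjusted p = 0.425). Vwf (NM_011708, chr6:125502966-125636697, plus strand) went from 0.751, 1.06 and 0.393 to 0.307, 0.636 and 0.030. The last value rests on 20.5 counts, and the log2 fold change was −1.28 (SE 0.87, adjusted p = 0.419). Nos3 (NM_008713, chr5:23870637-23890292, plus strand) was nearest to 0 of the 10, at 1.49, 2.01 and 0.816 before and 2.005, 1.53 and 0.460 after IR. Its log2 fold change was −0.20 (SE 0.52, adjusted p = 0.848) and turned to 0.19 (SE 0.38, adjusted p = 0.852) without WT IR replicate 3.

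Same-numbered WT libraries at baseline and after IR deviated together from their group means, so the fit with the replicate number as a block bears on this comparison. With that block 2 of 10 members were called lower, Emcn with a log2 fold change of −1.98 (SE 0.38, adjusted p = 0.0265) and Ehd3 with −1.14 (SE 0.20, adjusted p = 0.0201). The number of all genes called lower rose from 142 to 559 with the block, or 3.49%.

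**Figure D2:**
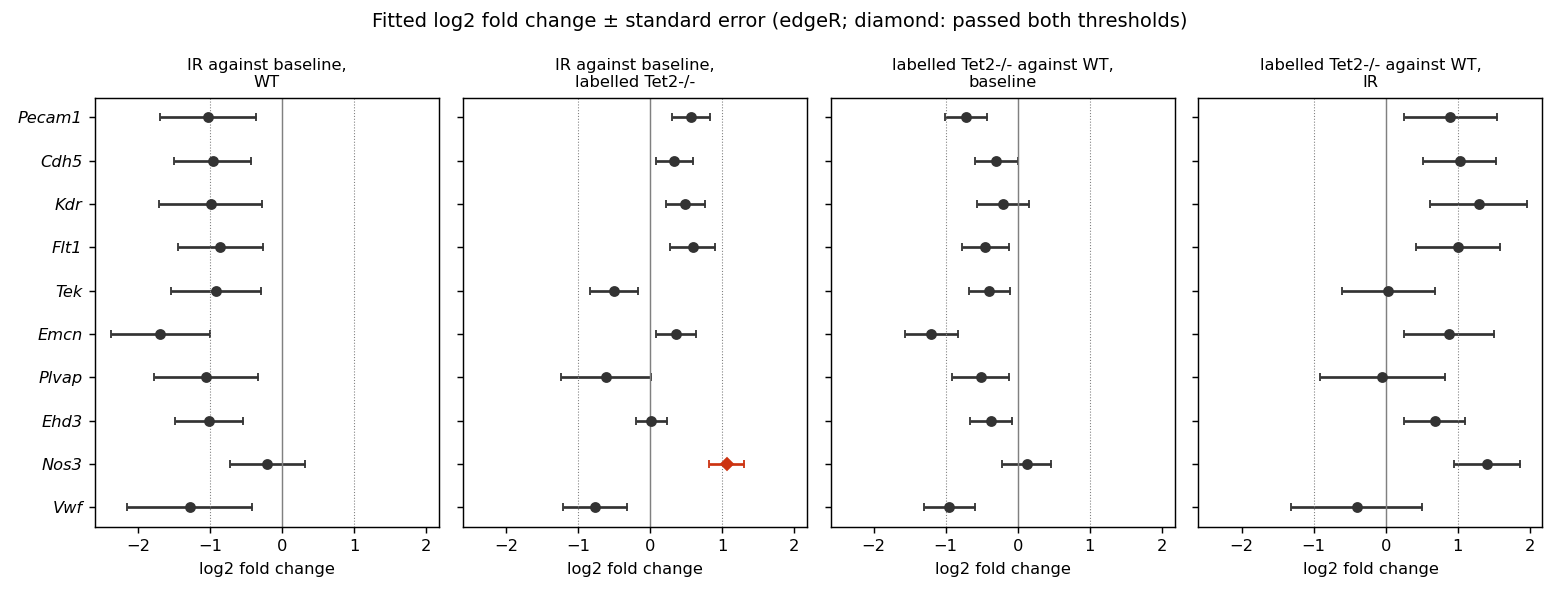
Log2 fold change of each gene in the IR effect of each genotype and in the genotype difference at baseline and after IR (edgeR, horizontal bars ± SE), with dotted lines at −1 and 1. The red diamond marks a called gene, here only Nos3 in the IR effect of kidneys labelled Tet2-/-, at 1.06.

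In kidneys labelled Tet2-/- Nos3 was called higher after IR and the other 9 genes were not called in either direction. The median log2 fold change of the 10 was 0.35, against 0.04 over all 16358 genes, with 7 above 0 (52.3% of all genes) and 3 below. The median of the 10 was 0.15 without baseline replicate 1 labelled Tet2-/-, 0.24 without IR replicate 1 or 2 and 0.52 without baseline replicate 2. edgeR called 1 of 10 higher, where 12.7% of all genes were called higher and 11.6% lower. The count of 1 is thus near the share of all genes. Scaled by library size without TMM factors, the median was 0.60, Nos3 was again the 1 member called, and all genes split into 2860 higher and 1397 lower in place of 2078 and 1896.

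Nos3 had an FPKM of 1.36, 1.92 and 1.14 in the baseline libraries labelled Tet2-/- and 4.46, 3.63 and 2.97 in the IR libraries. All 3 IR libraries lay above all 3 baseline libraries. The log2 fold change was 1.06 (SE 0.24, adjusted p = 0.0099), a rise 2.09-fold in size. The call rests on a value close to the fold limit: without baseline replicate 1, baseline replicate 3 or IR replicate 1 labelled Tet2-/- the log2 fold change was 0.997, 0.92 and 0.88 (adjusted p = 0.0403, 0.0412 and 0.033), each under the limit, and with all 12 libraries in a single fit it was 1.10 (SE 0.44, adjusted p = 0.0593).

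Kdr (NM_010612, chr5:76329299-76374453, minus strand) was the other gene whose groups did not overlap, which made 2 of 10 higher against 40.5% of all genes. Its FPKM was 1.32, 2.95 and 1.999 at baseline and 3.31, 3.97 and 3.31 after IR, a log2 fold change of 0.49 (SE 0.27, adjusted p = 0.181). Pecam1 (0.57, SE 0.27, adjusted p = 0.119) and Flt1 (0.59, SE 0.31, adjusted p = 0.164) had positive log2 fold changes of like size. Cdh5 (0.34), Emcn (0.36) and Ehd3 (0.02) had adjusted p values of 0.326, 0.314 and 0.946.

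Tek, Plvap and Vwf had negative values. Tek (NM_013690, chr4:94405980-94541667, plus strand) went from 2.20, 4.05 and 3.35 to 2.27, 4.26 and 1.76 FPKM, a log2 fold change of −0.50 (SE 0.33, adjusted p = 0.254). Plvap went from 24.3, 44.4 and 38.8 to 31.3, 50.4 and 5.58, so a single library, the IR replicate 3 rich in adipocyte markers, lay far below the other 5. The log2 fold change was −0.61 (SE 0.62, adjusted p = 0.455), and the part of the adipose signal in it was not tested. Vwf went from 0.434, 0.306 and 0.333 to 0.254, 0.419 and 0.099, a log2 fold change of −0.76 (SE 0.45, adjusted p = 0.205).

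Markers of other cells moved in the same comparison. Of 7 podocyte markers 6 were called higher, with a summed FPKM of 16.4 to 24.7 at baseline and 49.8 to 94.9 after IR. For 9 leukocyte markers the sums were 20.9 to 34.0 and 64.0 to 121, with 4 called higher (Itgam, Ly6g, S100a8 and S100a9) and 1 lower (Csf1r). For 6 tubule markers they were 2939 to 3309 and 853 to 3196, with 3 called lower (Slc34a1, Lrp2 and Slc12a1). Their part in the value of Nos3 was not tested.

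At baseline 9 of the 10 genes had a negative log2 difference between libraries labelled Tet2-/- and WT, with a median of −0.42 against 0.00 over all 16086 genes, of which 49.4% were negative, and edgeR called 0 of 10. Of all genes 0.0124% were called higher and 0% were called lower. Emcn, Vwf and Pecam1, 3 of 10, were lower at an unadjusted p under 0.05, against 8.20% of all genes, and the median of the 10 was −0.22 without baseline replicate 1 labelled Tet2-/-, −0.24 without WT baseline replicate 1, −0.64 without baseline replicate 2 labelled Tet2-/- and −0.66 without WT baseline replicate 3. DESeq2 called 1 lower, Emcn, where it called 1.85% of all genes lower.

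Emcn, at 12.1, 19.8 and 16.7 FPKM in the libraries labelled Tet2-/- and 34.8, 62.6 and 21.7 in WT, was the only member without overlap (1 of 10, against 16.5% of all genes lower). Its log2 difference was −1.20 (SE 0.37, adjusted p = 0.314). By DESeq2 it was −1.19 (SE 0.37, adjusted p = 0.0409). Without WT replicate 2, the highest, the log2 difference was −0.71 (SE 0.26, adjusted p = 0.206). Of the WT libraries with adipocyte markers replicate 2 had the highest Emcn and replicate 3, with more of these markers, the lowest. Vwf was at 0.434, 0.306 and 0.333 against 0.751, 1.06 and 0.393, with WT replicate 3 within the labelled Tet2-/- range, a log2 difference of −0.95 (SE 0.35, adjusted p = 0.369). Pecam1 was at 5.30, 7.92 and 6.78 against 11.3, 16.7 and 7.30, a log2 difference of −0.72 (SE 0.29, adjusted p = 0.404). The other 7 lay between −0.51 for Plvap and 0.12 for Nos3, with adjusted p values of 0.573 to 0.888. With the adipocyte level as a covariate, the median of the 10 was −1.12 and 0 were called. That level was −0.76, 1.71 and 3.35 in WT baseline and −0.75, −1.69 and −1.83 in baseline labelled Tet2-/-. The covariate is thus partly confounded with genotype.

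After IR 8 of the 10 genes had a positive log2 difference between libraries labelled Tet2-/- and WT, and edgeR called 0 of 10. The median was 0.89, against 0.04 over all 16186 genes, of which 53.4% were above 0, 2.30% were called higher and 3.85% lower. Without WT IR replicate 3 the median was 0.40, with 7 of 10 above 0 and 0 of 10 called, and without WT IR replicate 1 it was 1.42. The log2 differences without replicate 3 were 0.81 for Kdr, 0.60 for Cdh5, 0.56 for Flt1, 0.40 for Pecam1, 0.39 for Emcn, 0.31 for Ehd3, −0.44 for Tek, −0.54 for Plvap and −0.95 for Vwf, with adjusted p values of 0.244 to 0.710.

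Nos3 and Kdr did not overlap between genotypes (2 of 10, against 22.0% of all genes higher). Nos3 was at 4.46, 3.63 and 2.97 FPKM in the IR libraries labelled Tet2-/- and 2.005, 1.53 and 0.460 in WT IR libraries. The log2 difference was 1.41 (SE 0.45, adjusted p = 0.0949). Nos3 was the only member with an unadjusted p under 0.05, where 13.9% of all genes were higher at that limit. DESeq2 called it (1.40, SE 0.46, adjusted p = 0.0172), as did a single fit over all 12 libraries (1.41, SE 0.44, adjusted p = 0.0476), where they called 4.79% and 4.26% of all genes higher. With the replicate number as a block it was 1.58 (SE 0.34, adjusted p = 0.0482, with 2.95% of all genes called higher). Same-numbered libraries deviated together only in part here, with correlations over genes of 0, 0.206 and 0.303. Without WT IR replicate 3 the log2 difference of Nos3 was 1.01 (SE 0.26, adjusted p = 0.091).

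Kdr was at 3.31, 3.97 and 3.31 against 2.85, 1.03 and 0.275, with WT IR replicate 1 close to the labelled Tet2-/- libraries, a log2 difference of 1.29 (SE 0.67, adjusted p = 0.253). Cdh5 (1.03, SE 0.50, adjusted p = 0.230), Flt1 (NM_010228, chr5:148373772-148537564, minus strand; 1.01, SE 0.58, adjusted p = 0.298), Pecam1 (0.90, adjusted p = 0.402), Emcn (0.88, adjusted p = 0.394) and Ehd3 (0.68, adjusted p = 0.332) followed. Tek (0.04), Plvap (−0.05) and Vwf (−0.40) were the members nearest to or below 0, with adjusted p values of 0.977, 0.979 and 0.804.

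Markers of other cells differed between the same libraries. From WT IR to IR labelled Tet2-/- the summed FPKM ran from 4.78 to 29.0 and from 49.8 to 94.9 for podocyte markers, with 0 of 7 called by edgeR and 4 higher at an unadjusted p under 0.05. It ran from 11.1 to 21.5 and from 64.0 to 121 for leukocyte markers, with 3 of 8 tested called higher. For pericyte and smooth muscle markers it ran from 16.02 to 95.8 and from 88.7 to 149, with 0 of 8 called, although 3 had an unadjusted p under 0.05, 2 of them higher. Of 6 tested platelet markers 2 were called higher and 1 lower, of 6 tubule markers 2 were called lower, and of 4 tested adipocyte markers 0 were called, with 3 higher at that unadjusted limit. Without WT IR replicate 3 edgeR called 1 podocyte, 1 pericyte, 1 platelet and 2 leukocyte markers higher and 1 tubule marker lower. The part of these cells in the values of the 10 genes was not tested.

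The genotype by IR interaction, the difference between the IR effects over all 12 libraries, was positive for all 10 genes and called for 0 of 10. Of 16741 genes 3.78% were called higher and 5.38% lower, and 56.8% had a positive sign. The median of the members was 1.33 against 0.10 over all genes, and 0.92 without WT IR replicate 3. The largest was that of Emcn at 2.10 (SE 0.81, adjusted p = 0.123), the only one with an unadjusted p under 0.05 (14.6% of all genes were higher at that limit), followed by Pecam1 at 1.64 (SE 0.79, adjusted p = 0.206), Kdr at 1.53 (SE 0.84, adjusted p = 0.267), Flt1 at 1.49 (SE 0.74, adjusted p = 0.218), Cdh5 at 1.35 (SE 0.65, adjusted p = 0.205) and Nos3 at 1.31 (SE 0.62, adjusted p = 0.200). Ehd3 was at 1.08, Vwf at 0.56, Plvap at 0.48 and Tek at 0.45. DESeq2 called 0 as well. The interaction without WT IR replicate 3 was 1.62 for Emcn, 1.16 for Pecam1, 1.05 for Kdr and Flt1, 0.93 for Cdh5, 0.92 for Nos3 and 0.72 for Ehd3, with adjusted p values of 0.110 to 0.357, and lay between −0.01 and 0.02 for Tek, Plvap and Vwf. In the same fit its median was 1.68 for podocyte, 1.01 for leukocyte, 1.82 for platelet and 10.9 for adipocyte markers. It was 0.05 for pericyte and smooth muscle markers and −0.55 for tubule markers. The part of these cells in the interaction of the 10 genes was not tested.

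Since nearly all of these genes shared the ups and downs of their library, each was also set against 33 other pan-endothelial genes. The relative level of a gene is its log2(FPKM + 0.1) minus the mean of the same measure over those 33 genes in that library. That mean was −0.31 in WT IR replicate 3 against 1.65 and 1.14 in WT IR replicates 1 and 2. Subtracting it raises every gene that did not fall with the 33 in that library. The shares of all genes in comparisons with WT IR carry this shift, so they are no neutral background, and counts among the 33 are given beside them. With 3 libraries against 3, an exact two-sided permutation test cannot go below p = 0.10, so the groups that do not overlap on this scale are given as a description. The edgeR fit scaled to the 33 genes is not used as a test of it, since its SEs for the 10 genes were 0.72 to 0.83 in WT after IR although these genes vary less on this scale. In kidneys labelled Tet2-/- after IR its SEs were 0.34 to 0.41, and it called Nos3 alone, higher (1.06, adjusted p = 0.018). Between genotypes at baseline they were 0.39 to 0.42, and it called 0 of 10. The pseudocount understates differences of Vwf, whose FPKM is near it. The pooled SD within groups was smaller on this scale for all 10 genes, for example from 0.76 to 0.20 for Flt1, from 0.72 to 0.20 for Cdh5, from 0.63 to 0.26 for Nos3 and from 1.27 to 0.74 for Plvap, which kept the widest spread.

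On this relative scale Nos3 was lowest at baseline and highest in the IR libraries labelled Tet2-/-. It was −1.22, −0.90 and −1.30 in WT baseline, −0.82, −0.79 and −1.18 in baseline labelled Tet2-/-, −0.58, −0.44 and −0.53 in WT IR and 0.35, −0.43 and 0.24 in IR labelled Tet2-/-. The IR libraries of each genotype lay above the baseline libraries, while the 2 IR groups met closely at −0.44 and −0.43. Nos3 was the only member of 10 higher without overlap in WT after IR, against 14.0% of all genes and 4 of the 33 reference genes. It was also the only one higher without overlap in the IR libraries labelled Tet2-/- against WT IR, where 6 of the 33 reference genes were. The share of all genes there, 0.692%, is lowered by the shift in WT IR replicate 3.

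Emcn was highest on this scale in WT baseline libraries, at 3.23, 3.99 and 3.27, and lay at 2.24, 2.51 and 2.58 in baseline labelled Tet2-/-, at 2.71, 2.90 and 1.72 in WT IR and at 2.98, 2.72 and 2.55 in IR labelled Tet2-/-. With Cdh5 it made 2 of 10 lower without overlap in WT IR against WT baseline, where 2 of the 33 reference genes were. The share of all genes, 0.599%, is lowered by the shift in WT IR replicate 3. Cdh5 separated narrowly, at 0.355 in its highest WT IR library and 0.375 in its lowest WT baseline library. Between genotypes at baseline 5 of 10 members (Pecam1, Flt1, Tek, Emcn and Vwf) lay lower without overlap and 0 lay higher, against 2.82% and 2.32% of all genes. Flt1, Tek and Vwf separated narrowly. Their lowest WT libraries were at −0.95, 0.37 and −2.19 and their highest labelled Tet2-/- libraries at −1.01, 0.30 and −2.27. Among the 33 reference genes 7 lay lower and 6 higher in the same comparison, so the reference itself was not uniform.

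Tek and Vwf lay lower without overlap after IR in the libraries labelled Tet2-/-, 2 of 10 against 19.2% of all genes, and Pecam1, Flt1 and Nos3 lay higher, 3 of 10 against 17.6%. Of the 33 reference genes 9 lay lower and 5 higher. Tek was at −0.17, 0.25 and 0.30 at baseline and −0.59, −0.20 and −0.48 after IR. Vwf was at −2.27, −3.10 and −2.70 at baseline and −3.33, −3.27 and −3.70 after IR, and was the 1 member lower without overlap than in WT IR, against 29.4% of all genes and 6 of the 33 reference genes.

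**Figure D3:**
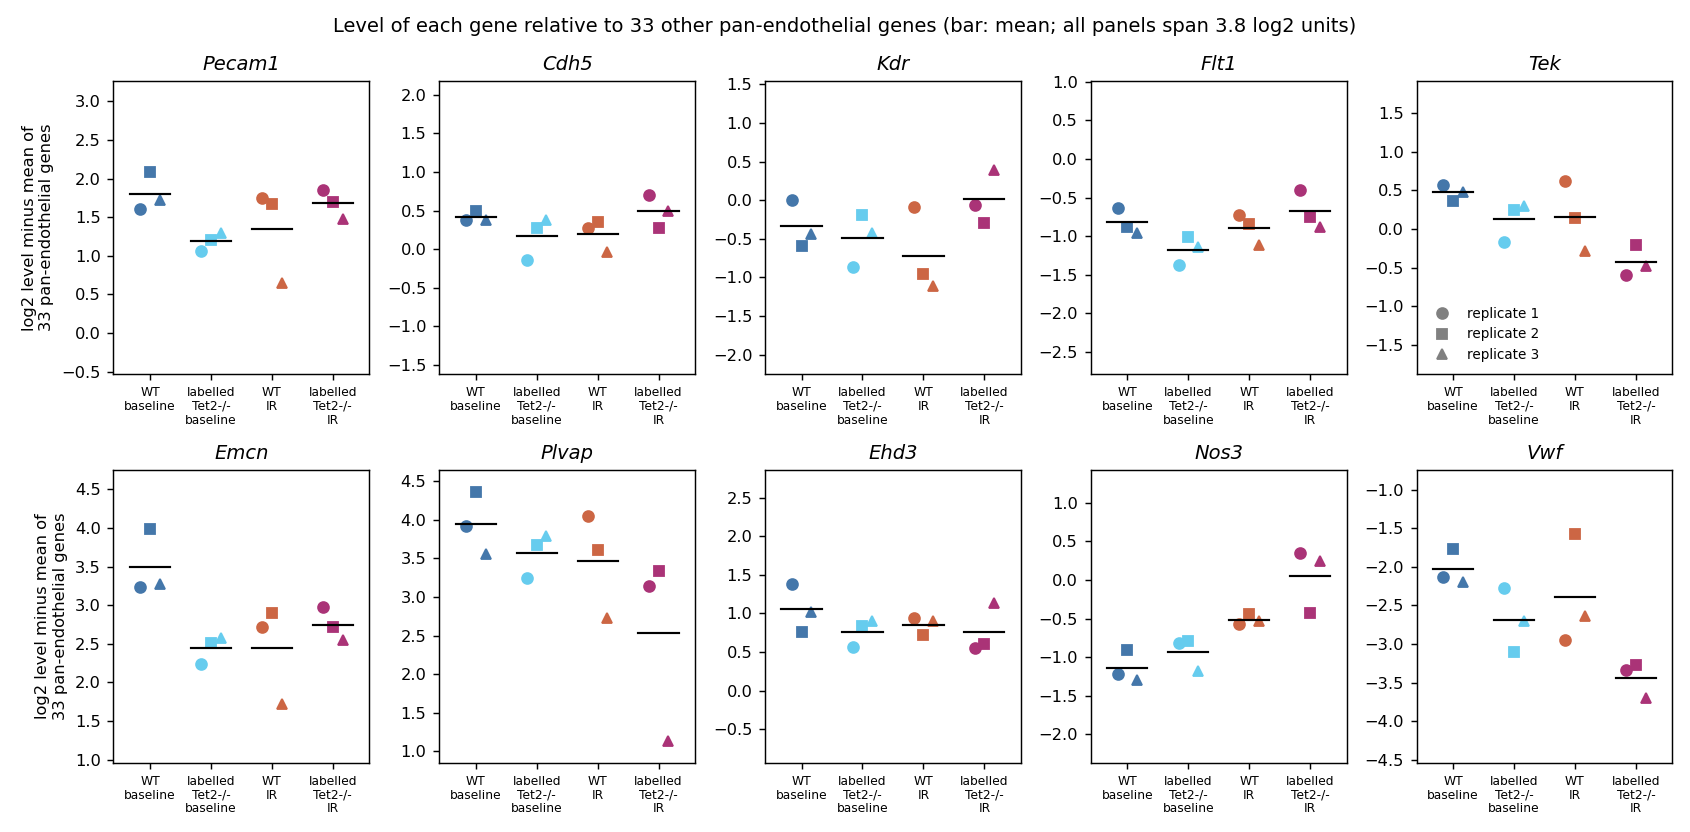
Relative level of each gene in the 12 libraries, as log2(FPKM + 0.1) minus the mean of 33 other pan-endothelial genes, by group. Nos3 lies between −1.30 and −0.79 at baseline and between −0.43 and 0.35 in IR labelled Tet2-/-, and Emcn is highest in WT baseline at 3.23 to 3.99.

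The 33 other pan-endothelial genes were tested in the same fits. In WT after IR 32 of 33 had a negative log2 fold change, with a median of −0.82 and 0 called by edgeR, with 6 lower at an unadjusted p under 0.05. After IR 32 of 33 were above 0 between genotypes, with a median of 0.73, and 1 was called. This was the transcription factor Klf4 (log2 difference 1.51, SE 0.25, adjusted p = 0.0181). The interaction was above 0 for 33 of 33 and again called for Klf4 (1.68, SE 0.45, adjusted p = 0.041). In WT IR libraries Klf4 lay between 1.23 and 2.06 FPKM, whereas the highest-to-lowest ratio of the members ran from 4.18 to 21.2 there. Klf4 thus did not share the wide spread of the members in that group. The part of cells other than endothelium in its values was not tested. Neither call of Klf4 was made without WT IR replicate 3 (1.35, adjusted p = 0.0543, and 1.52, adjusted p = 0.091), and the medians of the list were −0.40 in WT after IR, 0.33 between genotypes after IR and 0.50 for the interaction. In kidneys labelled Tet2-/- 2 of 33 were called higher after IR, where 12.7% of all genes were. Ecscr, an endothelial surface protein, rose by a log2 fold change of 1.36 (SE 0.34, adjusted p = 0.0153), and Cd93, a surface glycoprotein of vessel growth, by 1.08 (SE 0.23, adjusted p = 0.00864). At baseline the list had no common direction between genotypes, with 17 genes above 0 and 16 below, a median of 0.00 and 0 called.

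**Figure D4:**
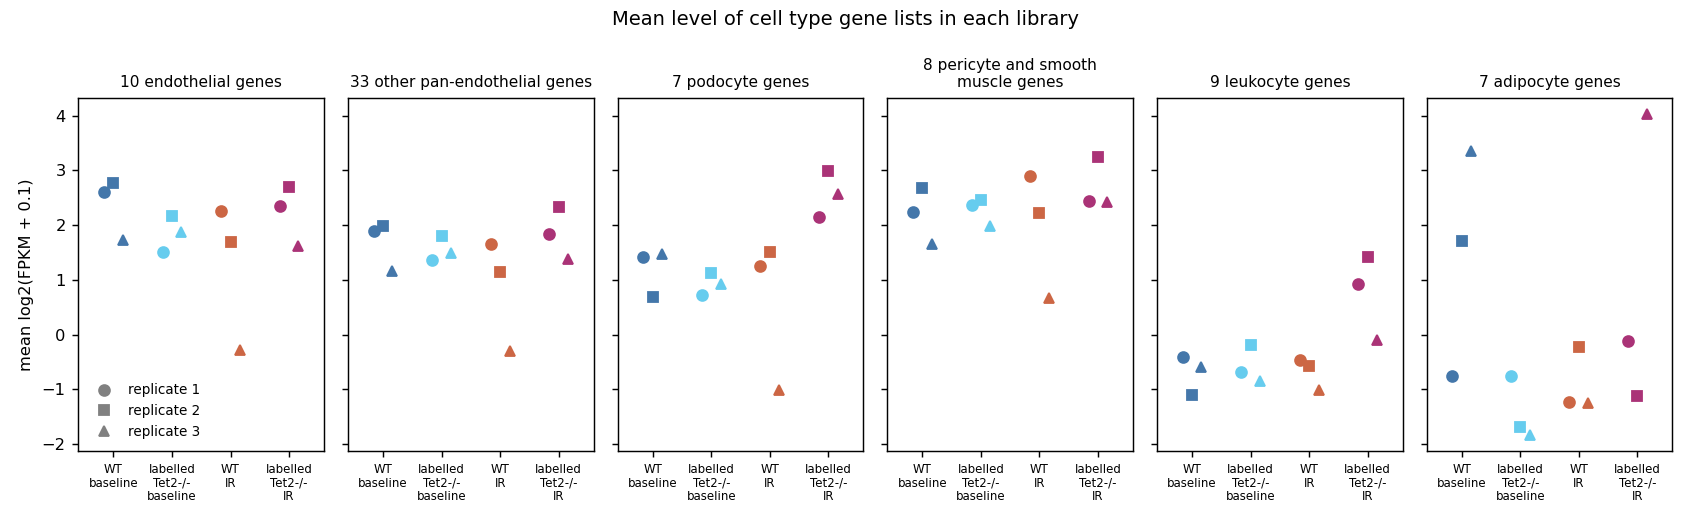
Mean log2(FPKM + 0.1) of marker lists in each of the 12 libraries. WT IR replicate 3 is low in the endothelial, podocyte and pericyte lists, and the adipocyte list is high, at 1.71 to 4.03, in 3 libraries.

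Ligands of the receptors were examined next. Vegfa, the main ligand of Kdr and Flt1 and made by podocytes and tubule cells, had an FPKM of 66.9, 78.5 and 76.7 in baseline libraries labelled Tet2-/- and 37.3, 36.0 and 27.1 after IR, with no overlap. It fell by 1.41 on the log2 scale (SE 0.16, adjusted p = 0.000605). In WT it was 65.9, 59.8 and 54.1 before and 57.9, 49.8 and 46.9 after IR, a log2 fold change of −0.28 (SE 0.13, adjusted p = 0.258). The interaction was called, at −1.09 (SE 0.20, adjusted p = 0.00937). Pgf, a ligand of Flt1, rose by 2.37 (SE 0.35, adjusted p = 0.00176) and Nrp1, a VEGF co-receptor, by 1.04 (SE 0.16, adjusted p = 0.00208) in kidneys labelled Tet2-/-, and Figf (VEGF-D) fell by 1.15 (SE 0.38, adjusted p = 0.0407). Of the 8 VEGF ligands and co-receptors 0 were called in WT after IR by edgeR, with 2 lower at an unadjusted p under 0.05. The interaction of Nrp1 was called as well (1.11, SE 0.25, adjusted p = 0.0211). Both interactions were also called without WT IR replicate 3, at −1.10 for Vegfa (adjusted p = 0.0237) and 1.14 for Nrp1 (adjusted p = 0.0427).

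Of the Tek ligands, Angpt1, the agonist, was not called in any comparison, with log2 values between −0.64 and 0.02. Angpt2, which can oppose it and is stored in endothelial cells, was at 6.93, 5.44 and 5.85 FPKM in baseline libraries labelled Tet2-/- and at 3.86, 2.57 and 1.06 after IR, and fell by 1.55 on the log2 scale (SE 0.39, adjusted p = 0.0157). In WT it was at 6.01, 9.65 and 6.02 before and 2.60, 4.02 and 1.79 after IR, also without overlap, a log2 fold change of −1.44 (SE 0.30, adjusted p = 0.0556), and of −1.24 (SE 0.30, adjusted p = 0.138) without WT IR replicate 3. Of the 5 angiopoietin-TIE genes Angpt4 was the other called gene, higher by 2.18 (SE 0.59, adjusted p = 0.0211) after IR in kidneys labelled Tet2-/- and named after its value was seen.

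Around Nos3, 2 of 11 genes of the nitric oxide pathway were called after IR in each genotype, 1 higher and 1 lower. Of all genes 1.46% were called higher and 0.887% lower in WT, and 12.7% and 11.6% in kidneys labelled Tet2-/-. Gch1, which makes the cofactor tetrahydrobiopterin, went from 0.357 ± 0.088 to 1.48 ± 0.592 FPKM in WT (SD, n = 3; log2 fold change 1.98, SE 0.36, adjusted p = 0.0385). In kidneys labelled Tet2-/- it went from 0.373 ± 0.0857 to 4.54 ± 0.359 (SD, n = 3; 3.34, SE 0.23, adjusted p = 0.000118), and it was higher than in WT IR by 1.53 (SE 0.29, adjusted p = 0.0248). Ass1, which supplies arginine and is abundant in proximal tubules, fell by 1.68 in WT (SE 0.16, adjusted p = 0.00842) and by 2.51 in kidneys labelled Tet2-/- (SE 0.38, adjusted p = 0.00189). Ass1 was again called in WT without WT IR replicate 3 (−1.64, adjusted p = 0.0368) and Gch1 was not, at 2.01 (adjusted p = 0.104) in WT and 1.502 (adjusted p = 0.0794) between genotypes.

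Genes of endothelial activation and haemostasis had the largest median of the pathway lists after IR in kidneys labelled Tet2-/-. Of 11 tested 8 were called higher and 0 lower, against 12.7% and 11.6% of all genes, with a median of 2.10 against 0.04 over all genes. The vasoconstrictor Edn1 rose by 2.69 (SE 0.30, adjusted p = 0.000599) and Plat, tissue plasminogen activator, by 2.63 (SE 0.26, adjusted p = 0.000383). In WT 1 of 10 was called, the leukocyte adhesion molecule Icam1, higher by 1.35 (SE 0.26, adjusted p = 0.0471), where 1.46% of all genes were called higher. After IR 4 of 11 were called higher in the libraries labelled Tet2-/- than in WT, against 2.30% of all genes. Among them were Edn1 by 2.27 (SE 0.46, adjusted p = 0.0293), the protein C receptor Procr by 1.58 (SE 0.26, adjusted p = 0.0178) and P-selectin Selp, named after its value was seen. edgeR called 0 in either comparison without WT IR replicate 3, with Icam1 at 1.30 (adjusted p = 0.133), Edn1 at 1.99 (adjusted p = 0.0769) and Procr at 1.45 (adjusted p = 0.0571). There an unadjusted p under 0.05 was met by 1 higher and 1 lower gene of 10 in WT and by 6 of 11 between genotypes, each higher. The interaction was called higher for 4 of 11, against 3.78% of all genes, and without that library for 3 of 11, against 235 of 16994 genes. Among them was Plat at 3.42 (SE 0.69, adjusted p = 0.0143) and 3.53 (SE 0.78, adjusted p = 0.0318). Plat already differed at baseline, at 13.9 to 55.2 FPKM in WT and 5.05 to 6.21 in libraries labelled Tet2-/-. After IR it was at 9.54 to 25.3 and 25.5 to 48.7, so its interaction holds the baseline difference as well. Several genes of this list are also made by tubule cells, leukocytes or platelets. For 7 platelet markers the summed FPKM was 4.36 to 5.72 at baseline and 5.67 to 12.7 after IR in libraries labelled Tet2-/-, with Pf4, Ppbp, Gp9 and Itgb3 called higher and Itga2b lower, and their part in these values was not tested. Of 8 endothelial Notch genes 0 were called in WT after IR by edgeR, with 1 lower at an unadjusted p under 0.05, and Hey2, a target of Notch, was called lower in kidneys labelled Tet2-/- (−1.21, SE 0.35, adjusted p = 0.0279) from a mean of 0.692 FPKM, and is named after its value was seen.

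The genes whose pattern over the 12 libraries was most like the mean of the members were Erg, Mmrn2, Fam167b, Ptprb and Gimap5. The root mean square difference of centred log2(FPKM + 0.1) was 0.148, 0.167, 0.171, 0.212 and 0.214, against a median of 0.835 over 12205 genes. Erg, an endothelial ETS factor, Mmrn2, an endothelial matrix protein, and Ptprb, the phosphatase of Tek, are among the 33 pan-endothelial genes. Of the members themselves Cdh5 (0.204), Flt1 (0.230) and Pecam1 (0.243) lay closest to the mean of the others, and Vwf (0.638), Nos3 (0.668) and Plvap (0.751) farthest. The 12 points share library depth and the low endothelial signal of WT IR replicate 3.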

How the data were processed

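RNA-seq of whole kidneys from 12 mice gave 12 libraries in 4 groups of 3 by the labels. The authors used STAR for alignment to mm9 and HOMER for counting per RefSeq transcript. Their deposited tables hold expected counts, not normalized, and FPKM for each transcript. Their versions are not given in the sources used here. The deposited expected counts rise in steps of 0.5 (38.7% of values are not whole). The design assumed counts, so they were rounded. Of 34600 transcripts for 24421 symbols, the one with the highest total was used where a symbol had several (5569 symbols). Totals per library were 51007362 to 107969879 counts. Starts were read as counted from 1, since 13134 equal an annotated start and 1018 do after adding 1.

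The members and lists were chosen with earlier results of these data known. Each comparison used its own 6 libraries, and the interaction all 12, in edgeR 4.0.16 (R 4.3.3, limma 3.58.1) with TMM, the low-count filter, its quasi-likelihood test and p values adjusted by Benjamini-Hochberg across every gene. Interaction calls needed an adjusted p under 0.05 only. A library is the unit, and by the labels and the study's methods each is a mouse. No 2 libraries shared more than 0.129% of their counts. Tests were tried on simulated data. Other settings were DESeq2 1.42.0, library sizes alone, no filter, all transcripts, a single fit, no fold threshold, the replicate number as a block, an adipocyte covariate, each library left out, and, chosen after seeing the data, scaling to pan-endothelial genes, the pathway lists without WT IR replicate 3, and leaving out WT baseline replicates 2 and 3. Same-numbered libraries deviated together between baseline and IR (correlations over genes of 0.349, 0.349 and 0.344 in WT and 0.12, 0.35 and 0.202 in libraries labelled Tet2-/-), though from different mice. Between genotypes they did not at baseline (−0.173, −0.15 and 0.052) and did only in part after IR (0, 0.206 and 0.303). Of the pathway lists the text names, per direction, up to 3 called genes, those of largest log2 fold change whose FPKM averaged 1 or more in either group, and always the members, Vegfa, Angpt1, Angpt2 and Tet2. Promoter windows of 250 bases were read from the mm9 genome. From the pathway lists 1 called gene, and from the promoters 1 sequence, were left out and are not reported here. Python 3.11.15 with matplotlib 3.10.9 drew the figures.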

Additional observations from a re-analysis of the deposited data

How the results depend on the processing

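Of 780 log2 values of the 10 genes under other settings 754 kept their direction, 26 reversed, 6 became called and 4 lost a call; the cause was not tested. Counts of called members moved as follows. In WT after IR 2 were lower with the replicate block. In kidneys labelled Tet2-/- 0 were higher with all 12 libraries in a single fit, and 0 to 1 with a library left out. Between genotypes DESeq2 gave 1 lower at baseline, and DESeq2, the block and the single fit gave 1 higher each after IR. The block changed no other call of a member. Called genes overall moved by over 1.5 times in most comparisons. DESeq2 gave 488 higher and 490 lower in WT after IR, 23 and 298 between genotypes at baseline, 775 higher between genotypes after IR, and 1209 higher and 1599 lower for the interaction. Leaving out WT baseline replicates 2 and 3 left 1 library in the WT baseline group, which was assumed to vary like the others, with 0 higher and 1 lower in WT after IR and 2 and 8 for the interaction.

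With a library left out, log2 values that reversed ran from −0.60 to 0.19 for Nos3 in WT after IR, from −0.16 to 0.18 for Ehd3 in kidneys labelled Tet2-/- after IR, from −0.16 to 0.44 for Nos3 and from −0.53 to 0.12 for Kdr between genotypes at baseline, from −0.63 to 0.74 for Plvap, from −0.95 to 0.51 for Vwf and from −0.44 to 0.84 for Tek between genotypes after IR, and from −0.0062 to 1.25 for Tek and from −0.16 to 1.27 for Plvap in the interaction. DESeq2 gave −0.0018 for Ehd3 in kidneys labelled Tet2-/-, the adipocyte covariate −0.31 for Nos3 at baseline, library sizes alone 0.064 for Plvap and the block 0.10 for Vwf between genotypes after IR. Scaling to the pan-endothelial genes gave 0.67 for Nos3 in WT after IR, −0.67 for Tek and −0.13 for Ehd3 between genotypes after IR, and −0.33 for Tek, −0.44 for Plvap and −0.42 for Vwf in the interaction. With a pseudocount of 1, 2 of the 5 genes most like the members remained. The median over the 10 genes, with a library left out, ran from −1.58 to −0.55 in WT after IR, from 0.15 to 0.52 in kidneys labelled Tet2-/- after IR, from −0.66 to −0.22 and from 0.40 to 1.42 between genotypes at baseline and after IR, and from 0.92 to 1.76 for the interaction.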

Other observations

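Marker lists of endothelial beds held genes called in both directions after IR in kidneys labelled Tet2-/-, and no list was tested as a set. Of all genes 12.7% were called higher and 11.6% lower in this comparison, and 1.46% and 0.887% in WT. In kidneys labelled Tet2-/- Plat was called higher and Lpl (lipoprotein lipase) lower among 5 tested genes of glomerular endothelium, and Gja5 (an arterial gap junction protein) was called higher and Fbln5 lower among 7 genes of arteries and descending vasa recta. Of 5 venous and peritubular genes Npr3 was higher and Igfbp3 lower. Of 7 lymphatic genes Lyve1 (log2 fold change 1.83, SE 0.51, adjusted p = 0.0228 by edgeR) and Pdpn (1.78, SE 0.36, adjusted p = 0.00677) were higher and Reln was lower. In WT kidneys after IR Igfbp3 (−2.10, SE 0.40, adjusted p = 0.0449) and Prox1 (−1.80, SE 0.33, adjusted p = 0.0386) were the only called genes of these lists, both lower. Without WT IR replicate 3 neither was called, at −1.83 (adjusted p = 0.105) and −1.74 (adjusted p = 0.127). These genes were named after their values were seen, and Lpl, Pdpn and Plat are also made by cells other than endothelium.

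Of 8 pericyte and smooth muscle markers Tagln (1.35, SE 0.20, adjusted p = 0.00158) and Mcam (1.26, SE 0.20, adjusted p = 0.00218) were called higher after IR in kidneys labelled Tet2-/-, where 12.7% of all genes were. In WT 0 were called by edgeR, with 0 at an unadjusted p under 0.05, where 1.46% of all genes were called higher and 0.887% lower. The 5 red blood cell genes had a summed FPKM of 30.5 to 249 over the libraries of the WT IR group and 222 to 251 in IR labelled Tet2-/-, with 0 called in any comparison by edgeR and 1 higher at an unadjusted p under 0.05 after IR in kidneys labelled Tet2-/-.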
